A study of Bos taurus with 27 samples.

Results

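Transcripts of 9 genes for enzymes of the tricarboxylic acid (TCA) cycle were followed in the rumen epithelium (RE) of fattening cattle. The genes CS, IDH2, IDH3A, IDH3B, IDH3G, SUCLG1, SUCLG2, FH and MDH2 were taken by name from the array design, where each had 1 probe printed as 1 spot, out of 15008 probes with 14952 gene names. Biopsies of the RE (ventral ruminal sac) came from the same 9 castrated and fistulated Japanese Black cattle at the early stage (14 months of age), the middle stage (21 months) and the late stage (29 months). The ration was rice straw plus concentrate at each stage. The paper states that the concentrate fed was raised step by step, and reports that concentrate intake was highest at the middle stage. Stage, age and ration changed together in every animal and cannot be told apart. There was no group on another ration. Each biopsy was hybridized to its own one-color array, which gave 27 arrays, 9 at each stage. The labels only number the arrays within a stage, and the same number was taken to be the same animal throughout. The change from early to middle is called the first period, that from middle to late the second period, and that from early to late the total period.

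The TCA cycle runs in the mitochondrial matrix. Acetyl groups from pyruvate, fatty acids, ketone bodies and some amino acids are joined to oxaloacetate and oxidized to carbon dioxide, and the electrons released are passed to the respiratory chain. The RE takes up volatile fatty acids made by the rumen microbes, and butyrate and acetate taken up there can enter the cycle as acetyl-CoA.

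The probes are 60 bases long. Those of CS, of IDH2 and of IDH3G are shown because of their changes. CS was the only one of the 9 to rise in the first period, and IDH2 was lower at both later stages. IDH3G passed the threshold in no period, except under some other ways of processing. They are given 5′ to 3′ in lower case, with no base singled out.
CS: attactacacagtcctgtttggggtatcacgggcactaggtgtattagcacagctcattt
IDH2: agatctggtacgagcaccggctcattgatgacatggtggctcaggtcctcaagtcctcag
IDH3G: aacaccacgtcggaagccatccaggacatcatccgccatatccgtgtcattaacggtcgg
In the coordinates of the array design (UMD 3.1), the CS probe lies at chr5:57388016-57388075 on the plus strand and the IDH2 probe at chr21:21907834-21907893 on the minus strand. The IDH3G probe lies at chrX:39916925-39916982 on the minus strand, a span of 58 bases for a probe of 60. Whether a probe lies in coding sequence or in an untranslated region was not analysed here. The identifiers of 8 of the 9 probes matched the gene of the same symbol in the RefSeq gene table (ARS-UCD2.0). The identifier of the MDH2 probe did not match, and its name is that of the array design.

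A level is the log2 processed signal of a probe minus the median of its array, and probes differ in brightness for the same amount of transcript, so that a difference between 2 probes is used only for how it changes from stage to stage. Middle-stage arrays were dimmer than the others, with 48.8 to 71.6% of probes well above background against 68.9 to 78.2% at the early and 68.5 to 73.8% at the late stage. The share was lowest at the middle stage in animals 9 (48.8%), 8 (55.4%) and 4 (56.5%). The early and middle arrays of animals 1 to 7 were scanned on the same day, though on different slides. The middle arrays of animals 8 and 9 shared another slide and were scanned on another day. No slide held arrays of both the middle and the late stage, or of both the early and the late stage, so slide and stage cannot be told apart in the second and total periods. Of 12 stratified epithelium markers on the array, 11, 9 and 11 were well above background on all 9 arrays of the early, middle and late stage, and the keratin KRT4 was so on 0 of 27. In such bulk samples, fewer cells of a type and less RNA per cell cannot be told apart.

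In the first period 6 of the 9 TCA cycle genes passed an adjusted P of 0.05 in limma with the animal as a block. CS was upregulated, and IDH2, IDH3A, SUCLG1, FH and MDH2 were downregulated. Of all 15008 probes, 66.5% passed that threshold, 45.3% upward and 21.3% downward. Among the 10165 probes well above background throughout at least 1 stage, 62.6% passed, 31.4% upward and 31.2% downward. The median log2 fold change was −0.45 over the 9 genes and 0.32 over all probes, and 1 of the 9 lay above the median of all probes. A change of at least 2-fold was passed by MDH2 alone of the 9, against 31.4% of all probes, and at the middle stage its spot stood well above background in 5 of 9 cattle. With quantile normalization the same number passed, 1 upward and 5 downward, against 24.5% and 23.3% of all probes. Within the first scan day 4 of the 9 passed (IDH2, SUCLG1, FH and MDH2), all downward. Of all 15008 probes 8593 passed there, 5768 upward and 2825 downward. When the slide was added as a fixed block, the early array of animal 9 was the only link between the stages. Limma then called 0 of the 9, with 0 below an unadjusted P of 0.05, and 1 of all 15008 probes. The median SE of all probes grew from 0.188 to 0.771, so this fit could hardly call any probe.

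In the second period 7 of the 9 genes passed. IDH2, IDH3B, SUCLG1, SUCLG2, FH and MDH2 were upregulated and CS was downregulated, while 71.5% of all probes passed, 27% upward and 44.6% downward, and of the 10165 brighter probes 67.9%, 39.6% upward and 28.3% downward. The median log2 fold change was 0.32 over the 9 genes and −0.27 over all probes. MDH2 was again the only one of the 9 with a change of at least 2-fold, which 39% of all probes showed. FH fell just short, with a log2 change of 0.9998, and reached it with outlying spots kept (1.0006). At the middle stage the MDH2 spot stood well above background in 5 of 9 cattle, and its change was 0.34 after normexp background correction. When arrays were scaled by their 75th percentile, 4 of the 9 genes passed (CS, SUCLG1, FH and MDH2), against 21.6% of all probes upward and 51.8% downward, and the medians were 0.13 over the 9 genes and −0.46 over all probes.

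Over the total period 3 of the 9 genes passed, IDH3B and SUCLG2 upward and IDH2 downward, against 20.1% of all probes, 11.2% upward and 8.93% downward. Of the 10165 brighter probes 28.5% passed, 18.4% upward and 10.1% downward. The median log2 fold change was 0.25 over the 9 genes and 0.03 over all probes. Which genes passed turned with the scaling. With the 75th percentile, quantile normalization, the median of bright probes, cyclic loess or the series matrix, 3 passed as well, but these were CS, IDH2 and IDH3A, and 0 were upward and 3 downward. With 75th percentile scaling 6.65% of all probes passed upward and 12.9% downward, and the medians were 0.13 over the 9 genes and −0.087 over all probes. Of the 3 genes called after median scaling, IDH2 alone passed under each of these scalings. Neither IDH3B, SUCLG2 nor IDH2 reached a 2-fold change, which 4.11% of all probes did. The number passing was 1 without animal 6 and 5 without animal 4, against 2300 and 3129 of all 15008 probes. The number was 8, all but MDH2, with only the early and late stages in the fit and with the methods' paired t-test. Of all 15008 probes 4814 and 4526 passed in these 2 ways. A random slide block took the place of the animal block, so the cattle were not paired in that fit. With it limma passed 4, 4 and 0 of the 9 genes in the first, second and total periods, with 5, 4 and 2 below an unadjusted P of 0.05. Of all 15008 probes 7167, 7982 and 390 passed.

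**Figure D1:**
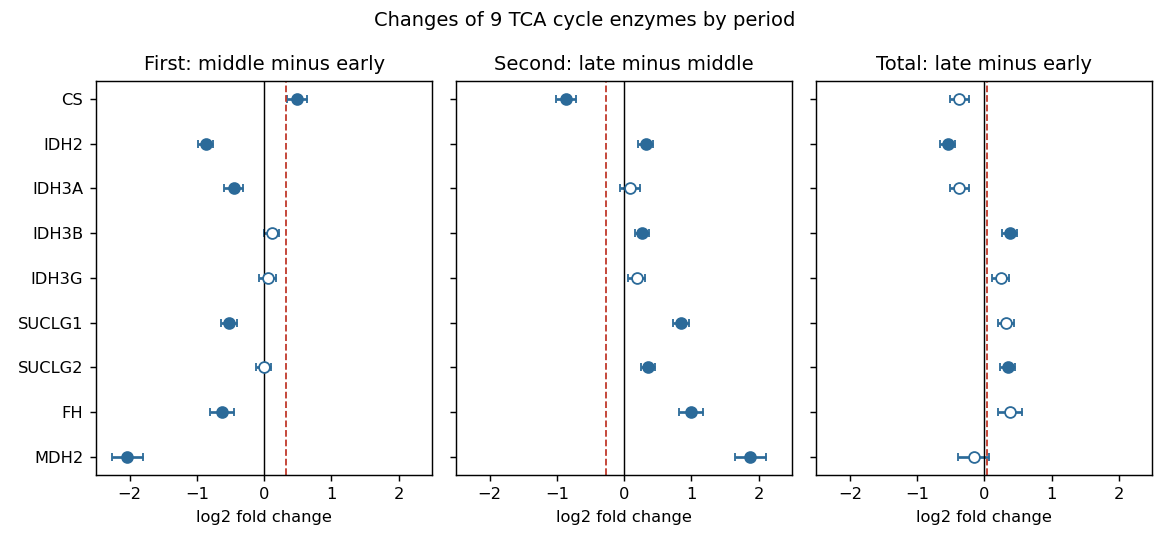
Log2 fold change of each of the 9 enzymes (x axis) in the first, second and total periods, with bars of 1 standard error from the limma fit, filled points for an adjusted P below 0.05 and a dashed line at the median of all probes (0.32, −0.27 and 0.03). In the first period only CS lies to the right of that line, and in the second period only CS lies to its left.

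CS, citrate synthase, joins acetyl-CoA to oxaloacetate at the entrance of the cycle. Its level lay between 3.56 and 4.55 on the early arrays (median 3.91), 3.94 and 5.01 on the middle arrays (median 4.66) and 3.21 and 3.88 on the late arrays (median 3.63). The late-stage levels all lay below the lowest middle-stage level, and the early and middle stages overlapped. CS rose in the first period by a log2 fold change of 0.49 ± 0.15 (SE, n = 9, limma adjusted P = 0.0066), with a higher level in 8 of 9 cattle. It fell in all 9 cattle in the second period, by 0.86 ± 0.15 on the log2 scale (limma adjusted P = 4.17e-05), and the total change of −0.37 did not pass (adjusted P = 0.084), and passed with 75th percentile scaling (−0.49, adjusted P = 0.0291) and without animal 9 (−0.45, adjusted P = 0.0387). The first-period rise was 0.30 (adjusted P = 0.14) within the first scan day and 0.17 (adjusted P = 0.23) without animals 4, 8 and 9, whose middle-stage levels were 5.01, 4.90 and 4.71. After normexp background correction the changes were 0.04 and −0.22, with adjusted P of 0.89 and 0.43.

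Isocitrate dehydrogenase oxidizes isocitrate to 2-oxoglutarate. IDH2 is the mitochondrial enzyme that uses NADP, and IDH3A, IDH3B and IDH3G encode the subunits of the enzyme that uses NAD, of which IDH3A is the catalytic one. IDH2 lay between 3.11 and 3.82 on the early arrays (median 3.24), 2.18 and 2.83 on the middle arrays (median 2.61) and 2.62 and 3.06 on the late arrays (median 2.76). Every early-stage level was above every middle-stage and every late-stage level.

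IDH2 fell in all 9 cattle in the first period, by 0.87 ± 0.11 on the log2 scale or 1.82-fold (limma adjusted P = 3.34e-06). It rose by 0.32 ± 0.11 in the second period, in 8 of 9 cattle (limma adjusted P = 0.0138), and stayed lower in late than in early samples of 9 of 9 cattle, by a log2 fold change of −0.55 ± 0.11 (limma adjusted P = 0.0016). The first-period change was −0.99 within the first scan day (adjusted P = 7.13e-04). The second-period rise was 0.13 (adjusted P = 0.28) with 75th percentile scaling, and the total change was −0.54 (adjusted P = 0.12) under a random slide block and −0.34 (adjusted P = 0.35) after normexp background correction.

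IDH3A lay between 3.90 and 4.40 on the early arrays (median 4.14), 2.66 and 4.41 on the middle arrays (median 3.86) and 3.53 and 4.12 on the late arrays (median 3.74). Its middle-stage levels were the most spread of the 3 stages, and the 3 lowest were those of animals 4 (2.66), 8 (3.12) and 9 (3.37). It fell in the first period by 0.45 ± 0.15 on the log2 scale (limma adjusted P = 0.0106), in 7 of 9 cattle. The change was −0.33 (adjusted P = 0.16) within the first scan day and −0.15 (adjusted P = 0.28) without animals 4, 8 and 9. The second-period difference was 0.08 (adjusted P = 0.62), and it was −0.10 with 75th percentile scaling. The total difference was −0.37 (adjusted P = 0.081), lower in 8 of 9 cattle, and it passed with 75th percentile scaling (−0.49, adjusted P = 0.0175).

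IDH3B lay between 6.45 and 7.00 on the early arrays (median 6.83), 6.47 and 7.30 on the middle arrays (median 6.96) and 6.93 and 7.26 on the late arrays (median 7.13). The stages overlapped, and the late stage was the narrowest. The first-period difference was 0.11 ± 0.11 (limma adjusted P = 0.36). IDH3B rose by 0.26 ± 0.11 in the second period, in 8 of 9 cattle (limma adjusted P = 0.0335), and by 0.37 ± 0.11 over the total period, in 9 of 9 cattle (limma adjusted P = 0.0174). The second-period rise was 0.08 (adjusted P = 0.48) and the total rise 0.25 (adjusted P = 0.066) with 75th percentile scaling, and without animal 6 they were 0.21 (adjusted P = 0.10) and 0.34 (adjusted P = 0.055). The second-period call was also lost without animal 2, 3, 5 or 8.

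IDH3G lay between 5.64 and 6.34 on the early arrays (median 6.06), 5.58 and 6.60 on the middle arrays (median 5.98) and 5.93 and 6.49 on the late arrays (median 6.32). The 3 stages overlapped. Its differences were 0.06, 0.19 and 0.25 in the first, second and total periods, with limma adjusted P of 0.70, 0.18 and 0.18. The late-stage level was above the early-stage level in 8 of 9 cattle. That total difference passed in the methods' paired t-test (adjusted P = 0.0334) and in limma with only the early and late stages (adjusted P = 0.0457). With 75th percentile scaling it was 0.13 (limma adjusted P = 0.50). The second-period difference passed without animal 9 (0.30, adjusted P = 0.0213) and after normexp background correction (0.87, adjusted P = 0.0108), and was 0.00 with 75th percentile scaling.

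**Figure D2:**
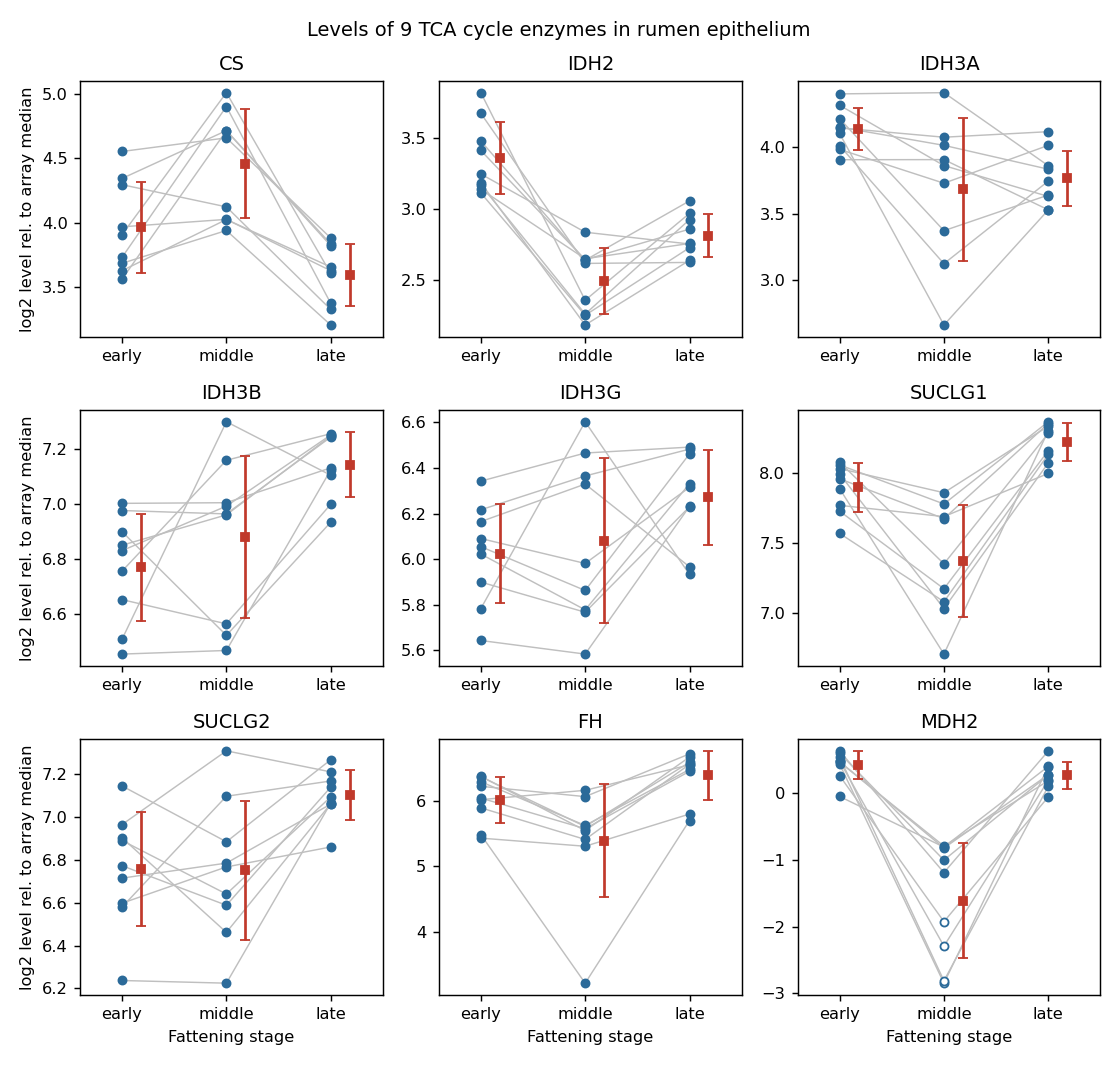
Log2 level of each enzyme relative to the array median (y axis) at the early, middle and late stages (x axis), with a blue point per array, a gray line per animal, open points where the spot was not well above background, and red squares with bars for the mean and SD of 9 arrays. CS peaks at the middle stage, MDH2 and SUCLG1 are lowest there, IDH2 is highest at the early stage, and the only open points are 4 of the 9 middle-stage points of MDH2.

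Succinyl-CoA ligase turns succinyl-CoA into succinate while making a nucleoside triphosphate. SUCLG1 encodes its alpha subunit and SUCLG2 the beta subunit of the form that makes GTP, whereas SUCLA2 encodes the beta subunit of the form that makes ATP. SUCLG1 lay between 7.57 and 8.08 on the early arrays (median 7.96), 6.71 and 7.86 on the middle arrays (median 7.35) and 8.00 and 8.37 on the late arrays (median 8.28). All late-stage levels lay above all middle-stage levels, and the early stage overlapped with both.

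SUCLG1 fell in the first period by 0.52 ± 0.12 on the log2 scale (limma adjusted P = 8.70e-04) and rose in the second by 0.85 ± 0.12 (limma adjusted P = 5.41e-06), both in 9 of 9 cattle. The first-period change was −0.62 within the first scan day (adjusted P = 0.0082). Its total difference was 0.32 ± 0.12, higher in 9 of 9 cattle, and did not pass in limma over all probes (adjusted P = 0.062), and it did pass without animal 4 (0.31, adjusted P = 0.0425). It also passed in the methods' paired t-test (adjusted P = 0.0021) and in limma with only the early and late stages (adjusted P = 0.0058). It was 0.20 (adjusted P = 0.16) with 75th percentile scaling and 0.15 (adjusted P = 0.33) with quantile normalization.

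SUCLG2 lay between 6.24 and 7.15 on the early arrays (median 6.77), 6.22 and 7.31 on the middle arrays (median 6.77) and 6.86 and 7.27 on the late arrays (median 7.09). The early and middle stages covered nearly the same range, with a first-period difference of −0.01 ± 0.11 (limma adjusted P = 0.97) that was 0.06 with 75th percentile scaling. SUCLG2 rose by 0.35 ± 0.11 in the second period, in 8 of 9 cattle (limma adjusted P = 0.0078), and by 0.35 ± 0.11 over the total period, in 9 of 9 cattle (limma adjusted P = 0.0317). With 75th percentile scaling these rises were 0.17 (adjusted P = 0.14) and 0.23 (adjusted P = 0.12). The total rise did not pass without animal 3, 5, 6 or 7, and was 0.29 (adjusted P = 0.10) without animal 6.

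FH, fumarase, adds water to fumarate and gives malate. It lay between 5.43 and 6.37 on the early arrays (median 6.04), 3.21 and 6.16 on the middle arrays (median 5.57) and 5.70 and 6.72 on the late arrays (median 6.55). The middle-stage level of animal 4 lay far under the next, 5.31, and the stages overlapped. FH fell in the first period by 0.62 ± 0.18 on the log2 scale, in 8 of 9 cattle (limma adjusted P = 0.0050), and rose in the second by 1.00 ± 0.18, in 9 of 9 cattle (limma adjusted P = 6.82e-05). Without animal 4 the changes were −0.42 (adjusted P = 0.0036) and 0.81 (adjusted P = 7.78e-06). The first-period change was −0.70 (adjusted P = 0.0345) within the first scan day, −0.60 (adjusted P = 0.19) under a random slide block, and 0.27 (adjusted P = 0.91), in the other direction, under a fixed slide block. The total difference was 0.38 ± 0.18 (limma adjusted P = 0.15), with 9 of 9 cattle above their early level, and it passed without animal 4 (0.40, adjusted P = 0.0170). It also passed in the methods' paired t-test (SE 0.055, adjusted P = 0.0019) and in limma with only the early and late stages (adjusted P = 0.0036). It was 0.26 (adjusted P = 0.26) with 75th percentile scaling, 0.19 (adjusted P = 0.45) with quantile normalization and 0.18 (adjusted P = 0.32) with cyclic loess.

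MDH2, mitochondrial malate dehydrogenase, oxidizes malate to the oxaloacetate that CS uses. Its level lay between −0.05 and 0.63 on the early arrays (median 0.47), −2.85 and −0.79 on the middle arrays (median −1.19) and −0.06 and 0.63 on the late arrays (median 0.27). The middle-stage levels all lay below the levels of both other stages, which overlapped with each other. The spot was well above background on all early and late arrays and on 5 of 9 middle-stage arrays. The 4 others, of animals 4, 7, 8 and 9, held the lowest levels.

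MDH2 fell in the first period in all 9 cattle, by 2.03 ± 0.23 on the log2 scale (limma adjusted P = 1.19e-06), and rose in the second in all 9, by 1.88 ± 0.23 (limma adjusted P = 1.29e-06). Both sizes rest in part on the 4 middle-stage spots that were not well above background, so no fold is given. The first-period change was −1.91 within the first scan day (adjusted P = 0.0019) and −1.68 without animals 4, 8 and 9 (adjusted P = 1.77e-04). After normexp background correction the changes kept their direction but were −0.40 and 0.34, and both passed (adjusted P = 5.21e-06 and 3.72e-06). The total difference was −0.16 ± 0.23 (limma adjusted P = 0.70).

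The levels of the earlier and later stage did not overlap in the first period for 2 of the 9 genes (IDH2 and MDH2), against 13% of all probes. In the second period that held for 3 (CS, SUCLG1 and MDH2), against 20.7% of all probes, and over the total period for 1 (IDH2), against 6.55%. Apart from MDH2 at the middle stage, all 9 genes were well above background on every array.

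The difference between 2 probes of the same array does not move when the whole array is scaled. It was followed in 7 pairs of enzymes over the 3 periods, in 21 exact two-sided sign-flip permutation tests over the 9 cattle with Benjamini-Hochberg adjustment, for which 0.0039 is the smallest P possible. In all, 10 tests passed. How often pairs of other probes would pass was not computed, while 66.5% and 71.5% of all single probes passed in limma in the first and second periods. The tests share genes and periods and are not independent. In both periods limma had called MDH2 and CS in opposite directions, so the outcome of that pair was largely set beforehand. SUCLG1 minus SUCLG2 lay between 0.82 and 1.44 on the early arrays (median 1.09), 0.07 and 1.09 on the middle arrays (median 0.59) and 0.83 and 1.48 on the late arrays (median 1.09). The difference fell in all 9 cattle in the first period, by 0.52 ± 0.27 (SD, n = 9, exact P = 0.0039, adjusted P = 0.0137), and rose in all 9 in the second, by 0.50 ± 0.29 (exact P = 0.0039, adjusted P = 0.0137). Its total change was −0.02 ± 0.21 (exact P = 0.75). The alpha subunit fell relative to the GTP-forming beta subunit and then rose relative to it.

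Of the NAD-dependent isocitrate dehydrogenase, IDH3A minus IDH3B lay between −3.099 and −2.05 on the early arrays (mean −2.63), −4.30 and −2.06 on the middle arrays (mean −3.20) and −3.72 and −3.14 on the late arrays (mean −3.38). It was lower in 9 of 9 cattle after the first period, by a mean change of −0.56 ± 0.67 (exact P = 0.0039, adjusted P = 0.0137), and in 9 of 9 over the total period, by −0.74 ± 0.32 (exact P = 0.0039, adjusted P = 0.0137). Every late-stage difference lay below every early-stage difference. The first-period change was −1.55, −1.05 and −1.63 in animals 4, 8 and 9. Their middle-stage arrays had the lowest shares of probes well above background. In the other 6 cattle the change lay between −0.47 and −0.0016, with a mean of −0.14 ± 0.19 and no test. Over the total period those 6 had a mean change of −0.64 ± 0.32, lower in 6 of 6. After normexp background correction the first-period change was −0.46 (exact adjusted P = 0.25).

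IDH3A minus IDH3G changed by −0.62 ± 0.39 over the total period, lower in 8 of 9 cattle (exact P = 0.0078, adjusted P = 0.0182), and by −0.51 ± 0.66 in the first period (exact P = 0.0352, adjusted P = 0.067), which passed without animal 6 or 7 and was −0.094 without animals 4, 8 and 9. IDH3B minus IDH3G changed by 0.05 ± 0.24, 0.07 ± 0.33 and 0.13 ± 0.23 in the first, second and total periods, with exact adjusted P of 0.69, 0.60 and 0.26. The catalytic subunit was lower relative to both others at the late than at the early stage, and IDH3B minus IDH3G over the total period passed without animal 2 (0.18, exact adjusted P = 0.0447). IDH2 minus IDH3A passed in no period, with changes of −0.41 ± 0.74, 0.24 ± 0.71 and −0.18 ± 0.45 (exact adjusted P of 0.23, 0.44 and 0.43). In the first period it fell in the 6 cattle other than animals 4, 8 and 9, by a mean of 0.87 ± 0.35, and had changes of 0.67, 0.48 and 0.35 in those 3.

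Differences with MDH2 carry the limit of its middle-stage spots, of which 4 of 9 were not well above background, and their sizes in the first and second periods depend on it. MDH2 minus CS changed by −2.53 ± 1.28 in the first period, lower in all 9 cattle, and by 2.74 ± 1.07 in the second, higher in all 9 (exact P = 0.0039 and adjusted P = 0.0137 for both). Its total change was 0.21 ± 0.56 (exact adjusted P = 0.44). FH minus MDH2 changed by 1.41 ± 0.96, −0.88 ± 0.79 and 0.54 ± 0.38 in the first, second and total periods, each in the same direction in 8 of 9 cattle (exact adjusted P of 0.0182, 0.0182 and 0.0246). After normexp background correction FH minus MDH2 turned to −0.69 in the first period (exact adjusted P = 0.25) and to 1.34 in the second (exact adjusted P = 0.0164), and MDH2 minus CS was −0.45 in the first (exact adjusted P = 0.25) and 0.56 in the second.

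**Figure D3:**
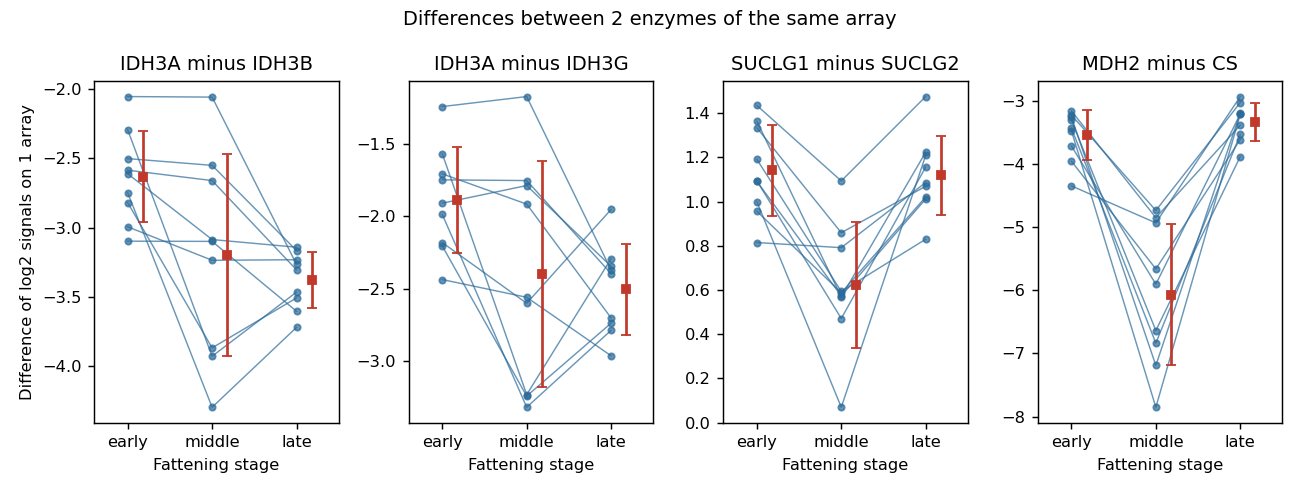
Difference of the log2 signals of 2 enzymes on the same array (y axis) at each stage (x axis), with a line per animal and red squares with bars for the mean and SD of 9 cattle. SUCLG1 minus SUCLG2 and MDH2 minus CS dip at the middle stage in all 9 cattle, and IDH3A minus IDH3B is lower at the late than at the early stage in all 9.

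Another 8 subunits of cycle enzymes on the array fell in the first period, and most rose in the second, as IDH2, SUCLG1, FH and MDH2 did. In the first period 8 of 8 fell (median of the log2 changes −1.71), against 21.3% of all probes, and in the second 7 of 8 rose (median 1.74), against 27%, while over the total period 0 of 8 passed in limma (median 0.075), with 0 below an unadjusted P of 0.05. Under the alternatives that covered all 8 genes, the first-period median ran from −1.81 to −1.15 and the second-period median from 1.20 to 1.78. Cyclic loess covered 5 of the 8, without SDHA, SDHC and DLST. Its medians of −0.92 and 0.84 are those of a smaller set of genes. With the slide as a fixed block limma called 0 of 8 in the first period, 3 of them below an unadjusted P of 0.05, and 1 of all 15008 probes. Over the total period 2 of 8 passed upward with the methods' t-test. In limma 2 of 8 passed downward over the total period with 75th percentile scaling, the median of bright probes and the series matrix (medians −0.046, −0.058 and −0.043), and 1 of 8 with quantile normalization. With cyclic loess 1 of the 5 passed downward, and with 2 stages in the fit 1 of 8 passed upward. These probes include dim ones, since SDHA, SDHC and DLST were well above background on 7, 6 and 8 of the 9 middle-stage arrays and all others on 9 of 9. Whether the 2 sets of genes differ was not tested.

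Succinate dehydrogenase, which oxidizes succinate and is also complex II of the respiratory chain, holds 4 of them. SDHA, its flavoprotein subunit, had the largest changes of the 8, with log2 fold changes of −2.94 ± 0.11 and then 3.03 ± 0.11. The iron-sulfur subunit SDHB changed by −1.73 ± 0.18 and 2.02 ± 0.18, and the membrane subunit SDHC by −1.84 ± 0.12 and 1.66 ± 0.12. The other membrane subunit, SDHD, fell by 0.67 ± 0.16 and its second-period difference of 0.36 ± 0.16 did not pass (limma adjusted P = 0.054).

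Of the 2-oxoglutarate dehydrogenase complex, which makes succinyl-CoA, OGDH changed by −1.68 ± 0.10 and 1.82 ± 0.10, DLST by −2.16 ± 0.20 and 2.45 ± 0.20, and DLD, which is shared with other dehydrogenase complexes, by −0.96 ± 0.22 and 0.86 ± 0.22. SUCLA2, the ATP-forming counterpart of SUCLG2, fell by 1.02 ± 0.20 in the first period and rose by 1.08 ± 0.20 in the second, while the SUCLG2 values were −0.01 and 0.35.

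**Figure D4:**
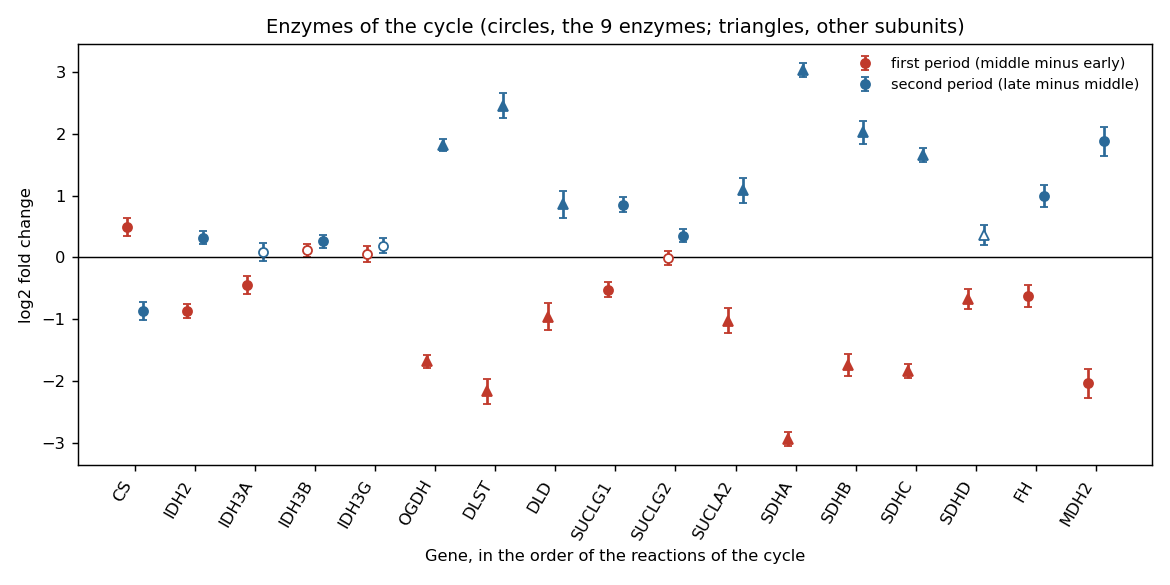
Log2 fold change (y axis) of the 9 enzymes (circles) and another 8 subunits (triangles), in the order of the reactions of the cycle (x axis), with bars of 1 standard error, red for the first and blue for the second period and filled symbols for an adjusted P below 0.05. Of the genes plotted, CS alone rose first and fell later, and SDHA has the widest swing, −2.94 and 3.03.

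Of 12 genes on the array that control the entry of carbon into the cycle, 5 rose and 3 fell in the first period, against 45.3% of all probes upward and 21.3% downward. In the second period 5 rose and 4 fell (27% and 44.6% of all probes), and over the total period 3 rose and 1 fell (11.2% and 8.93%). Dim probes are those that did not stand well above background throughout either stage compared. Without them 9, 7 and 9 genes were left in the first, second and total periods. Of these 3 rose and 3 fell, 4 rose and 2 fell, and 2 rose and 1 fell in turn. Among the 10165 probes well above background throughout at least 1 stage, the shares were 31.4% and 31.2%, 39.6% and 28.3%, and 18.4% and 10.1%. PDHA1, the alpha subunit of pyruvate dehydrogenase, rose by 1.09 ± 0.16 in the first period, and PDK3, a kinase that switches that enzyme off, had first, second and total changes of −1.78 ± 0.19, 2.45 ± 0.19 and 0.67 ± 0.19. PC, pyruvate carboxylase, which replenishes oxaloacetate, fell by 1.30 ± 0.16 in the second period. PDHX, which anchors a subunit within the pyruvate dehydrogenase complex, fell by 0.73 ± 0.19 over the total period, with a spot well above background on 7 of the 9 late arrays.

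Of 16 genes for cytosolic counterparts, shuttles and exits of the cycle, 1 rose and 8 fell in the first period (45.3% and 21.3% of all probes), 8 rose and 4 fell in the second (27% and 44.6%), and 0 rose and 1 fell over the total period (11.2% and 8.93%). Of the 4 that fell in the second period 2, MDH1 and PCK1, were on dim probes, well above background on at most 1 of 9 arrays at any stage. IDH1, the cytosolic isocitrate dehydrogenase that uses NADP, fell by 1.56 ± 0.22 in the first period and rose by 1.80 ± 0.22 in the second. ME2, a mitochondrial malic enzyme that turns malate to pyruvate, rose by 0.43 ± 0.18 and then fell by 0.73 ± 0.18. SLC25A1, the citrate carrier of the inner mitochondrial membrane, was the gene that fell over the total period, by 0.68 ± 0.13 (limma adjusted P = 0.0012).

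Some markers of cells under the epithelium changed between stages, as did most probes of the array (66.5% and 71.5% in the first and second periods). Their part in the results was not tested. The median level of 6 smooth muscle markers ran from −1.30 to 0.80 on the early arrays, from −0.53 to 1.35 on the middle arrays and from −1.42 to −0.31 on the late arrays, with 3 of 6 well above background on all arrays of each stage. Of these markers 3 rose in the first period and 5 fell in the second, against 45.3% and 44.6% of all probes. Of 6 fibroblast markers 1 rose and 1 fell in the first and 1 rose and 3 fell in the second. The fibroblast median ran from 3.39 to 5.10, 3.88 to 5.54 and 3.58 to 4.67 on the early, middle and late arrays. Of 12 stratified epithelium markers 2 rose and 6 fell in the first period, 4 rose and 2 fell in the second, and 1 rose and 1 fell over the total period, with medians from 4.79 to 6.06, 4.96 to 6.56 and 5.45 to 6.03. KRT4, which was never well above background, is 1 of the 2 that rose and 1 of the 2 that later fell, and without it 1 rose and 6 fell in the first period and 4 rose and 1 fell in the second. The markers that fell in the first period were GRHL3 (−1.99), SPINK5 (−1.83), KRT6A (−1.28), KRT14 (−1.12), KRT5 (−0.56) and DSP (−0.51). Of the basal layer genes on the list KRT5 and KRT14 fell, while KRT15 (−0.0021) and TP63 (0.11) did not pass. The shares of all probes given above for each period and direction are the background for these counts too, and 1 of the 3 smooth muscle markers that rose, MYH11, and 2 of the 5 that fell, MYH11 and CNN1, were on dim probes.

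Over the 27 arrays, levels of the 9 enzymes were related in different ways. Of the 36 pairs, 25 had a Pearson correlation above 0, from −0.66 for CS and MDH2 to 0.79 for IDH3B and SUCLG2, with a median of 0.18. IDH3B, IDH3G and SUCLG2 stood close together, with r of 0.75 for IDH3B and IDH3G and 0.77 for IDH3G and SUCLG2, while IDH3A had negative r with all 3, from −0.48 to −0.46. The arrays share animals, slides and stages, and these values are descriptions.

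Among 6756 probes of other genes well above background on all 27 arrays, the one with the pattern most like each enzyme was MIER1 for CS (r = 0.92), GCDH for IDH2 (0.90), WDR77 for IDH3A (0.87), ALKBH7 for IDH3B (0.93), EFHD2 for IDH3G (0.88), CRYL1 for SUCLG1 (0.97), TGM5 for SUCLG2 (0.89), MED21 for FH (0.89) and SLC25A6 for MDH2 (0.95). Each r is the highest of 6756 and is given with no test.

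**Figure D5:**
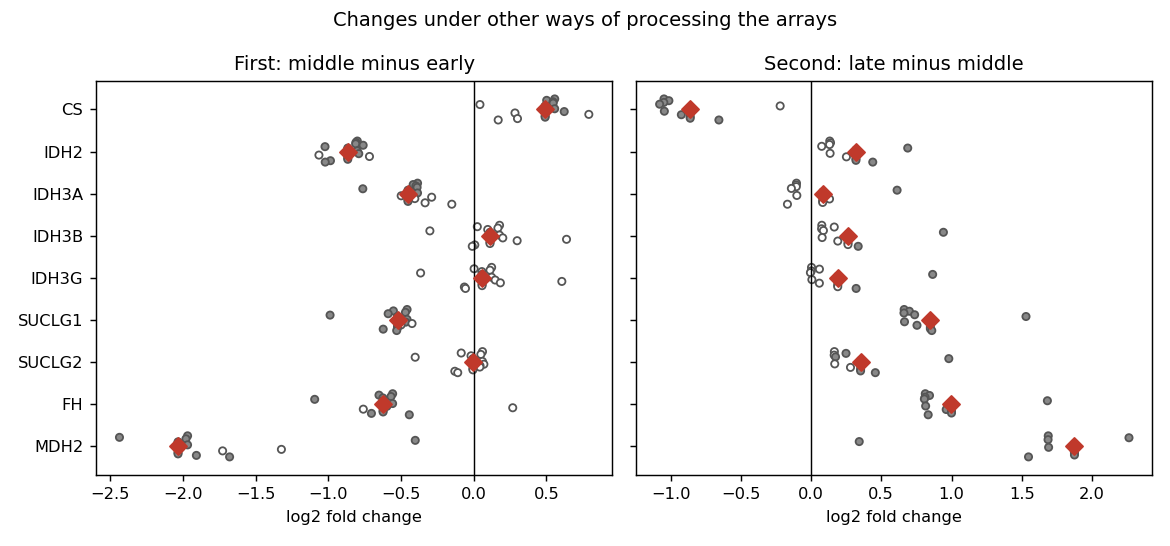
Log2 fold change (x axis) of each enzyme in the first and second periods as reported (red diamonds) and under the other ways of processing (gray points, filled for an adjusted P below 0.05; fits without 1 animal are left out). CS, IDH2, IDH3A, SUCLG1 and MDH2 stay on 1 side of 0 in the first period, FH crosses it once, under a fixed slide block, and IDH3B, IDH3G and SUCLG2 lie on both sides.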

How the data were processed

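Each of 27 RE biopsies gave RNA for 1 one-color array. The authors deposited scanner output of Agilent Feature Extraction (11.0.1.1 in the file headers, 9.5 in the submitters' processing notes), with a background-subtracted processed signal, a linear intensity, per spot, and marks of 0 or 1 for spots well above background, saturated or outlying. The authors also deposited log2 values, the series matrix, with column medians of −3.07 to −2.60. Its columns matched log2 signal from which roughly the array's 75th percentile had been taken away, so centering and scale were found. Direction is not in question for 1 color.

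For each array the median log2 signal was subtracted, as the methods describe, outlying spots (kept in 1 alternative) were left missing, and no spot was saturated. limma 3.58.1 in R 4.3.3 fitted 3 stage means with the animal as a block, and Benjamini-Hochberg adjustment ran over 15008 probes per period at 0.05. Standard errors are those of the fit. The paper sampled the same 9 cattle at each stage and used paired tests. That arrays with the same number come from the same animal was assumed, since the labels do not say so. Deviations from stage means correlated at 0.158 on average within an animal (lowest −0.151, highest 0.461, positive in 24 of 27 pairs) and at −0.020 across animals. The members and lists were chosen with earlier results of these data known. Text names all 9 members, 8 other subunits of the cycle, and of 2 further lists the most raised and lowered gene per period among those that stood well above background throughout 1 stage. PDHX is matched by its identifier. A result for 1 listed gene is not reported here. The fits were also run on simulated arrays with few changed probes and the same spread at each stage, unlike these data. No result here rests on that run. Pairs were tested by sign flips in Python 3.11.15 with numpy 2.4.6.

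Marker lists were fixed for 6 cell types. Of 5 endothelial markers 1 rose and 1 fell in the first period, 0 rose and 1 fell in the second, and 0 rose and 2 fell over the total period. Of 9 leukocyte markers the numbers were 4 and 2, 3 and 5, and 0 and 2, and of 3 red blood cell markers 1 and 0, 0 and 1, and 0 and 0. With only probes well above background on all 9 arrays of at least 1 of the stages compared, 4 endothelial markers were left in each period. Their numbers were 0 and 1, 0 and 0, and 0 and 1. Of the leukocyte markers 7, 6 and 7 were left, with numbers of 2 and 2, 3 and 2, and 0 and 2 (CDH5, ITGAM and MS4A1 were among the dim ones). The shares of all probes and of the brighter probes given above for each period are the background here too. Over the total period 0 of 6 smooth muscle markers passed in limma (1 at an unadjusted P below 0.05), and 1 of 6 fibroblast markers rose and 1 fell. Alternatives were other scalings (75th percentile, quantile, median or cyclic loess over probes that stood well above background on every array), normexp with an offset of 50, no dim probes, outlying spots kept and the series matrix. Further ones were no animal block, a random slide block in its place, a fixed slide block beside it, and slide 2 by itself without an animal block. The last were the methods' paired t-test, 2 stages in the fit, and each animal left out. Fits within the first scan day and without animals 4, 8 and 9 were chosen after seeing the data, as were pair values without these animals, which have no test. Precision is limited by 9 arrays per stage and by signal over background. Reads and depth have no meaning for arrays.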

Additional observations from a re-analysis of the deposited data

Results flagged for a closer look

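FH at the middle stage had a level of 3.21 in animal 4, and the next lowest of the 9 arrays was at 5.31. The gap was 0.71 of the range of the group, above Dixon's critical value for 9 arrays. It was 1 such value in 27 groups of 9 arrays (9 enzymes at 3 stages), and chance gives about 1 in 20. That array had 56.5% of probes well above background, and the FH spot was well above background on it. The changes of FH without animal 4 were −0.42 (first period) and 0.81 (second period).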

How the results depend on the processing

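Without each animal in turn, 6 of the 9 enzymes passed in the first period in every fit, 6 to 8 in the second and 1 to 5 over the total period, with medians of −0.51 to −0.33, 0.28 to 0.37 and 0.20 to 0.30, and 10 to 11 pair tests passed. In the same fits the first-period change of SUCLG2 was −0.071 to 0.049 and that of IDH3G −0.038 to 0.095, and the second-period change of IDH3A −0.015 to 0.16. Pair changes that crossed 0 in them were IDH3A minus IDH3G in the second period (−0.24 to 0.029), IDH3B minus IDH3G in the first (−0.013 to 0.083) and SUCLG1 minus SUCLG2 over the total period (−0.059 to 0.020). Without the replicate block 6, 7 and 2 enzymes passed, SUCLG2 being lost over the total period (0.35, adjusted P = 0.057). Of all probes 9700, 10480 and 2753 passed there. With the slide as a fixed block 0 enzymes passed in the first period in limma (0 at an unadjusted P below 0.05, median 0.043), FH turned to 0.27 and SUCLG2 to 0.043. Slide 2 alone sets the early array of animal 9 against the middle arrays of animals 1 to 7, with no pairing. SUCLG2 was 0.042 there. The slide as a random block, without the animal block, gave 4 enzymes in the second and, in limma, 0 in the total period (2 unadjusted). SUCLG2 was 0.070 there in the first. In the second period 4 passed with 75th percentile scaling, the median of bright probes, cyclic loess and the series matrix, with medians of 0.13, 0.13, 0.082 and 0.14. Of all probes 11014, 11001, 4761 (of 6764 tested) and 11005 passed there. There IDH3A turned to −0.10, −0.11, −0.14 and −0.10, and to −0.11 with quantile normalization, and IDH3G to −0.0049 with cyclic loess. SUCLG2 turned to 0.060, 0.049 and 0.060 in the first period with 75th percentile scaling, the median of bright probes and the series matrix. With quantile normalization the total median was 0.062. After normexp the second-period median was 0.87, 0 passed in limma over the total period (1 unadjusted, median 0.50), against 1194 of all probes. IDH3G and IDH3B turned to −0.37 and −0.30 there in the first period, and FH minus MDH2 to −0.69 and 1.34. Over the total period 8 passed with the methods' t-test and 8 with 2 stages in the fit. Within the first scan day IDH3G was −0.064. Without animals 4, 8 and 9 the first-period median was −0.15 and 5 passed in the total period, against 3227 of all probes. IDH3G and IDH3B were at −0.057 and −0.0099 there in the first and IDH3A at −0.17 in the second. The fixed slide block, slide 2 and the first scan day could be fitted for the first period only, and MDH2 was not among the probes of the cyclic loess. Of 618 values of single enzymes under alternatives 498 kept direction and side of the threshold, and of 231 pair values 220 did. The causes were not tested.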
